A study of Schizosaccharomyces pombe with 2 samples.

Results

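The spliceosomal small nuclear RNAs (snRNAs) U1, U2, U4, U5 and U6 were examined in direct RNA sequencing (dRNA-seq) of vegetative fission yeast (Schizosaccharomyces pombe). The members were chosen by identifier. They are snu1 (SPSNRNA.01), snu2 (SPSNRNA.02), snu4 (SPSNRNA.04), snu5 (SPSNRNA.05) and snu6 (SPSNRNA.06), which makes 5 of the 12684 annotated features. The study sequenced native RNA on nanopores to delineate the transcripts of a snoRNA locus, and the snRNAs were captured in the same libraries. Its single group, called wild type (wt) in the labels, comprised haploid cells of the h- mating type grown in minimal medium, with 2 biological replicates. All cells carried leu1-32, a leucine auxotrophy marker, and pat1-L95G::kanR, an allele of the gene for the Pat1 kinase, which restrains meiosis. No second condition was sequenced, so the comparisons are between snRNAs and between the 2 libraries. Ribosomal RNA was removed from total RNA, and poly(A) tails were added in vitro, which snRNAs lack by nature. The nanopore then reads each RNA molecule from its 3′ end without amplification.

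The spliceosome removes introns from pre-mRNA and is assembled from small nuclear ribonucleoproteins (snRNPs), each built around an snRNA. U1 pairs with the 5′ splice site and U2 with the branchpoint. U4 and U6 enter as a base-paired complex together with U5 (the tri-snRNP). U4 is then released, U6 takes the place of U1 at the 5′ splice site and pairs with U2 to form the catalytic centre, and U5 holds the exons. U1, U2, U4 and U5 are made by RNA polymerase II and bind a ring of Sm proteins, whereas U6 is made by RNA polymerase III and binds a ring of LSm proteins.

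The gene sequences carry the pairing elements behind these roles and are shown for that reason, 5′ to 3′, as DNA letters of the RefSeq assembly ASM294v3. Capitals mark the 5′ splice site pairing element in U1 (nt 1 to 7), the branchpoint recognition element in U2 (nt 34 to 39), the stretch at the 5′ end of U4 that can pair with U6 (nt 1 to 11), the exon-binding loop of U5 (nt 46 to 54) and the intron of the U6 gene (nt 47 to 96 of the gene).
U1: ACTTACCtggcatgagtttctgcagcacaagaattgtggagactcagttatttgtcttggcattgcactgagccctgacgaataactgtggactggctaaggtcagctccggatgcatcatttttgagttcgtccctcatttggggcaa
U2: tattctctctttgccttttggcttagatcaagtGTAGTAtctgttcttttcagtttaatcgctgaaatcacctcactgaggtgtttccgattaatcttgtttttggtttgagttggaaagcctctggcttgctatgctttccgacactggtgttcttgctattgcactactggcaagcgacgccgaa
U4: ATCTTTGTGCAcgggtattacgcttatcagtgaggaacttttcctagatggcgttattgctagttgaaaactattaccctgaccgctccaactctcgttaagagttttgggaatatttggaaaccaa
U5: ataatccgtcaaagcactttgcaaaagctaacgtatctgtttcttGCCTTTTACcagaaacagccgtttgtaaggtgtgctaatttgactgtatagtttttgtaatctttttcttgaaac
U6: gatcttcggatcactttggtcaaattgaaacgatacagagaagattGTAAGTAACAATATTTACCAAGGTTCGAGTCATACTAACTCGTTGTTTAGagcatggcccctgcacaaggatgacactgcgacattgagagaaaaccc

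The genes lie apart from each other. U1 is at chrII:3020205-3020353 on the plus strand, U2 at chrI:959370-959556 on the minus strand, U4 at chrII:467489-467615 on the minus strand, U5 at chrII:3236867-3236986 on the plus strand and U6 at chrI:2562276-2562419 on the minus strand. All 5 intervals of the deposited table equal those of ASM294v3. The spliced RNAs are 149 nt (U1), 187 nt (U2), 127 nt (U4), 120 nt (U5) and 94 nt (U6) long. The longest exact match of a member elsewhere in the genome was 16 to 18 nt. The longest run shared by any pair of members was 9 nt (U2 and U5), so that no full-length snRNA has a second match.

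U6 is the only member with an intron, of 50 nt at chrI:2562324-2562373, between exons of 46 and 48 nt. The intron has the form of a pre-mRNA intron, so that an RNA of the spliceosome is itself encoded in a gene with an intron. It begins with GTAAGT, as do 27.3% of the 5301 annotated introns of the genome, and U1 begins with the reverse complement of these letters. It holds TACTAAC from nt 33 of the intron, a branchpoint sequence present in 12.2% of introns, which U2 reads with the marked GTAGTA while the branch A stays unpaired. It ends in TAG, as do 67.5% of introns, and 36.3% of introns are shorter, against a median of 55 nt. The deposited table has a single value per gene, so spliced and unspliced U6 reads were not told apart.

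Base pairing between U4 and U6 was read from the same sequences. The longest run that can pair, counting G-U pairs, joins nt 1 to 11 of U4 with nt 58 to 68 of spliced U6 and holds 4 G-C pairs and 1 G-U pair. The next longest is 8 nt and joins nt 58 to 65 of U4 with nt 43 to 50 of spliced U6. That stretch of U6 spans the exon junction, which lies after nt 46, so the run exists in spliced U6 and is interrupted by the intron in the unspliced gene. These runs describe the letters and are no measurement of a complex.

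The elements named below are short, and matches were therefore set against non-overlapping genome windows of the same length, taken from both strands. The runs that can pair between U4 and U6 were not compared in this way. ACTTACC of U1 occurs in 0.805% of 149-nt windows, GTAGTA of U2 in 4.48% of 187-nt windows and GCCTTTTAC of U5 in 0.0492% of 120-nt windows. The U6 sequence ACAGAGA, which pairs with the 5′ splice site in the active spliceosome, stands at nt 35 of U6 and occurs in 0.492% of 94-nt windows. A run TTTTTG, of the uridine-rich kind that Sm rings bind, starts at nt 121 of U1, nt 100 of U2 and nt 97 of U5. It was found in neither U4 nor U6. Only this exact string was searched, so its absence does not show that U4 lacks an Sm site. TTTTTG occurs in 15.5%, 19.0% and 12.6% of windows of the U1, U2 and U5 lengths and in 13 of the 66 snoRNA features. None of these elements was found on the reverse strand of its snRNA.

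The library of replicate 1 held 12871729 counts and that of replicate 2 held 12579850, of which annotated rRNA took 59.8% and 62.3% despite the depletion. Cell identity matched the label: the h- pheromone gene mfm1 had 4405 and 4270 reads and all 5 h- genes listed had at least 567 reads in each library, whereas the 3 genes of the other mating type had 49 and 44 (map1), 2 and 0 (map2) and 9 and 14 reads (map3), and the 3 meiotic genes mei4, ssm4 and rec8 had 10 to 22 reads in each library. A count of 0 allows up to 3 counts. The common biological coefficient of variation (BCV) of the 2 libraries was 6.33%. It is the replicate spread beyond counting error, estimated by edgeR over features with at least 10 reads in both libraries together. The methods of the study treat replicates as independent yeast cultures, and n = 2 throughout.

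The 5 snRNAs together held 179513 reads in replicate 1 and 154029 in replicate 2, at 13946 and 12244 CPM (counts scaled to a library total of 1000000). A dRNA-seq read stands for 1 molecule or a part of it, so CPM was not divided by length, and values per nt are given beside the ratios between snRNAs. The mean was 13095 ± 1204 CPM (SD, n = 2), or 1.31% ± 0.120 of all counts and 3.36% ± 0.158 of counts outside rRNA. U2 made up most of this pool. Levels followed the order U2, U1, U5, U4, U6 in both libraries, and no CPM range of a member overlapped that of another.

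**Figure D1:**
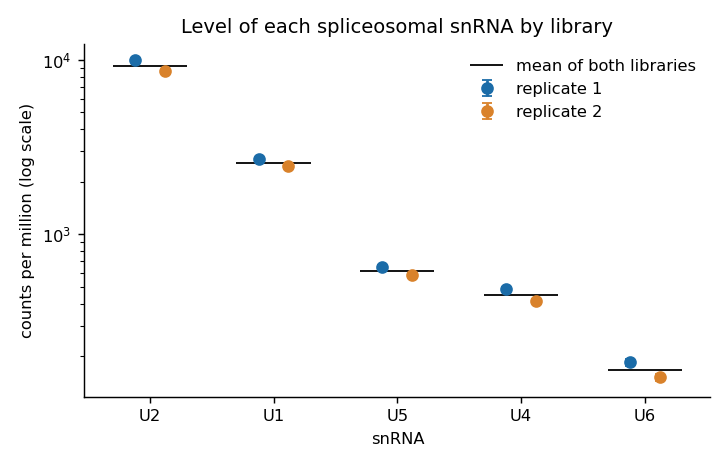
Level of each spliceosomal snRNA in CPM, on a log axis, for both libraries. Points are libraries, bars are exact Poisson 95% intervals of the count (mostly hidden by the points) and lines are means of the 2 libraries. Mean levels span 9285 CPM for U2 and 168 CPM for U6, and replicate 1 is above replicate 2 for every snRNA.

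U2 and U1, which are also the longest members, had the highest levels. U2, the branchpoint snRNA, had 127852 reads in replicate 1 and 108652 in replicate 2, and averaged 9285 ± 916 CPM. It ranked 10 among all features and 4 with rRNA left out, between snu3 (10079 ± 1452 CPM), a copy of the U3 snoRNA of pre-rRNA cleavage, and snR30 (6540 ± 1235 CPM), another snoRNA of pre-rRNA cleavage. U2 was below snu3 and above snR30 in both libraries, although the CPM ranges of U2 and snu3 overlapped.

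U1, the 5′ splice site snRNA, had 34639 reads in replicate 1 and 30872 in replicate 2, and averaged 2573 ± 168 CPM. It ranked 19, or 13 without rRNA. The next feature above it was the lncRNA SPNCRNA.808 (2629 ± 206 CPM) and the next below it the snoRNA snR95 (2413 ± 290 CPM). The ranges of U1 and each of these neighbours overlapped. U2 had 3.61 ± 0.121 reads per U1 read.

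U5 and U4 stood lower, among mRNAs of abundant housekeeping proteins. U5 had 8375 reads in replicate 1 and 7382 reads in replicate 2, an average of 619 ± 45.1 CPM, and ranked 157. Its neighbours in level were rpl1201, a gene for a protein of the large ribosomal subunit, at 620 ± 32.1 CPM, and pmp20 at 618 ± 36.5 CPM. U4 had 6272 reads in replicate 1 and 5216 reads in replicate 2, an average of 451 ± 51.4 CPM, and ranked 209. It stood between the ribosomal protein gene rpl302 (452 ± 14.7 CPM) and atp2 (449 ± 22.8 CPM), which encodes a subunit of the mitochondrial ATP synthase. The spread between the libraries exceeded the gap to the neighbours for both snRNAs.

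How evenly the added poly(A) tails captured the snRNAs was not tested. Of the members, U6, the snRNA at the catalytic centre, had the fewest reads. It had 2375 reads in replicate 1 and 1907 reads in replicate 2, that is 185 and 152 CPM, with exact Poisson 95% intervals of 177 to 192 and 145 to 159 and a mean of 168 ± 23.3 CPM. These intervals cover counting error only and do not overlap, so that the replicate spread exceeded the counting error. U6 ranked 322, beside oca8 (168 ± 2.18 CPM) and pmm1 (168 ± 2.95 CPM), 2 protein-coding genes whose levels in each library fell within the range of U6. Its coefficient of variation, 13.9%, was the highest of the members, and that of U1, 6.51%, the lowest.

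The composition of the pool was similar in both libraries. U2 took 71.2% of the snRNA reads in replicate 1 and 70.5% in replicate 2, and U1 took 19.3% and 20.0%. U5 took 4.67% and 4.79%, U4 3.49% and 3.39%, and U6 1.32% and 1.24%. Mean shares were 70.9% ± 0.482 for U2, 19.7% ± 0.528 for U1, 4.73% ± 0.0899 for U5, 3.44% ± 0.0760 for U4 and 1.28% ± 0.0601 for U6. These shares do not depend on the library total. The exact Clopper-Pearson 95% intervals of U1 (19.1% to 19.5% in replicate 1, 19.8% to 20.2% in replicate 2) and of U2 (71.0% to 71.4% and 70.3% to 70.8%) did not overlap between the libraries. Those of U4, U5 and U6 did.

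**Figure D2:**
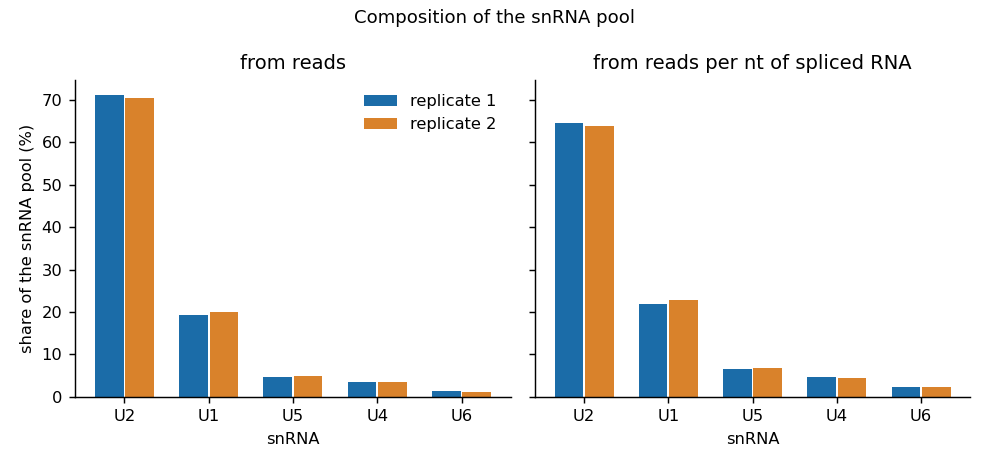
Share of each snRNA in the reads of the 5 snRNAs (left) and in the sum of their reads per nt of spliced RNA (right), in percent, as bars from 0 for both libraries. U2 holds 70.9% of reads on average and 64.1% per nt, and the order of the snRNAs is the same in both panels.

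Division by the length of the spliced RNA left the order unchanged, lowered the share of U2 and raised those of the shorter RNAs. Per nt, the mean shares were 64.1% for U2, 22.3% for U1, 6.67% for U5, 4.58% for U4 and 2.30% for U6. The share of U6 moved most for its size, by more than 1.5 times. Whether reads or reads per nt stand closer to molecule numbers was not tested.

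Stoichiometry was then expressed per U6 read, in reads rather than molecules, since capture by the added tails was not tested. There were 55.4 ± 2.22 U2 reads, 15.4 ± 1.13 U1 reads, 3.70 ± 0.244 U5 reads and 2.69 ± 0.0667 U4 reads for each U6 read. Per nt of spliced RNA the same values were 27.9 for U2, 9.71 for U1, 2.90 for U5 and 1.99 for U4. The snRNAs of the tri-snRNP, which join the spliceosome as a unit, had at most 3.53 reads per U6 read in replicate 1 and 3.87 in replicate 2, and U1 and U2 stood above them. Neighbours in the order differed by 3.61 ± 0.121 (U2 over U1), 4.16 ± 0.0326 (U1 over U5), 1.38 ± 0.0565 (U5 over U4) and 2.69 ± 0.0667 (U4 over U6), each more than its spread between the libraries.

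The read ratio of U4 and U6, which pair with each other, did not differ between the libraries beyond counting error. The same held for U1 with U5, U2 with U4 and U2 with U6. Of all pairs, U4 and U6 had the widest SE (0.0519). In replicate 1 there were 2.64 U4 reads per U6 read, with an exact 95% interval of 2.52 to 2.77, and in replicate 2 there were 2.74 (2.59 to 2.88). The log2 of the ratio in replicate 1 over that in replicate 2 was -0.05 (95% interval -0.15 to 0.05; two-sided Fisher's exact test, adjusted p = 0.368 over the 10 pairs). A difference of that size in either direction is not distinguishable at this depth, which does not show that the ratios are equal.

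Of the 10 pairs of snRNAs, 6 had read ratios that differed between the libraries. These were U1 and U2, U1 and U4, U1 and U6, U2 and U5, U4 and U5, and U5 and U6. The difference was largest for U1 and U6, with 14.6 U1 reads per U6 read in replicate 1 and 16.2 in replicate 2 (log2 difference -0.15, SE 0.0458, Fisher's exact test, adjusted p = 0.00337). The most significant was U1 and U2, with 0.271 and 0.284 U1 reads per U2 read (log2 difference -0.07, SE 0.0128, adjusted p = 7.63e-07). The pairs of U1 with U5, U2 with U4 and U2 with U6 did not pass, with intervals of -0.07 to 0.03, -0.09 to 0.02 and -0.17 to 0.01 on the log2 scale. No pair differed by 1.5-fold. The pairs share members and are not independent, and the test covers counting error only.

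**Figure D3:**
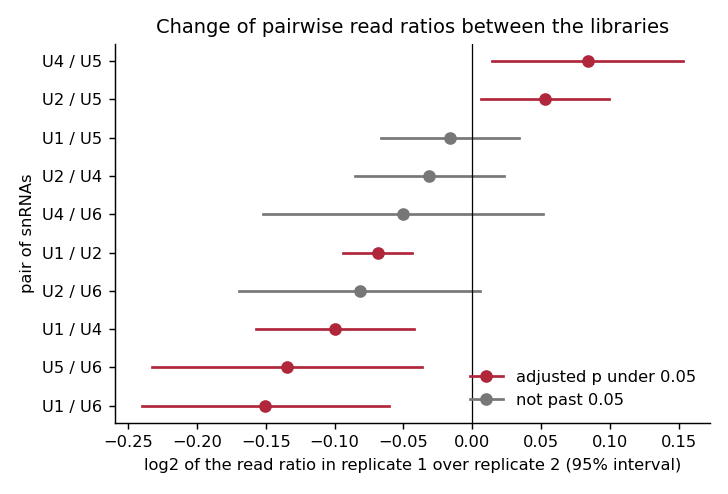
Log2 of the read ratio of each pair of snRNAs in replicate 1 over that in replicate 2, with 95% intervals from counting error. Red marks an adjusted p under 0.05 by Fisher's exact test. All 10 values lie between -0.15 and 0.08, and the interval of U4 over U6 includes 0.

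Every snRNA was higher in replicate 1 than in replicate 2. The log2 ratios of CPM were 0.13 for U1, 0.20 for U2, 0.23 for U4, 0.15 for U5 and 0.28 for U6. All 5 passed the exact binomial test (two-sided) on read counts, which sets 1 library against the other and covers counting error only, with p adjusted by Benjamini-Hochberg over the 6752 features that had at least 10 reads in both libraries together. Adjusted p was 1.24e-249 for U2, 7.38e-30 for U1, 7.28e-16 for U4, 7.78e-09 for U5 and 1.15e-08 for U6. Among all features tested, 4.19% were called in either direction and 2.18% were called higher in replicate 1. The calls over all features split into 147 higher and 136 lower in replicate 1, against 252 and 59 with TMM factors and 249 and 59 with DESeq2 size factors, and all 5 snRNAs were called with each. Among the 221 features that had 10000 reads or more in both libraries together, where small ratios are called, 45.2% were called higher in replicate 1, a set that holds U1, U2, U4 and U5 but not U6. The BCV corresponds to an SD of 0.13 for the log2 ratio of 2 libraries. The log2 ratios of U1 (0.13) and U5 (0.15) were close to this SD. Those of U2 (0.20), U4 (0.23) and U6 (0.28) were above it, but no ratio was tested against this replicate spread. The ratios were 1.10 for U1 to 1.22 for U6, so none reached 1.5-fold. CPM is a share of the library total, so a change in an snRNA and a change in the other RNAs cannot be told apart.

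The median log2 ratio of the 5 snRNAs was 0.20, and most snoRNAs and other abundant non-coding RNAs had ratios of the same sign. Of 55 snoRNAs tested, 45 had a ratio above 0, 19 were called with more in replicate 1 and 0 with more in replicate 2 (exact binomial test, with 25 and 0 at an unadjusted p under 0.05, and 19 and 0 called by a chi-square test), with a median log2 ratio of 0.17. Of 17 non-coding features outside the rRNA, snRNA members and snoRNA classes with at least 10000 reads in sum, 16 were called with more in replicate 1 and 0 with more in replicate 2, also by the chi-square test and at an unadjusted p under 0.05, with a median of 0.17. The median was -0.07 for 4921 protein-coding genes and -0.06 for all features tested. The rRNA share moved the other way, 59.8% in replicate 1 and 62.3% in replicate 2, and its part in the result was not tested. With rRNA left out of the library total the log2 ratios were lower by 0.09, U1 (0.04) was still called and U5 (0.06) was not (exact binomial test, adjusted p = 0.101).

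**Figure D4:**
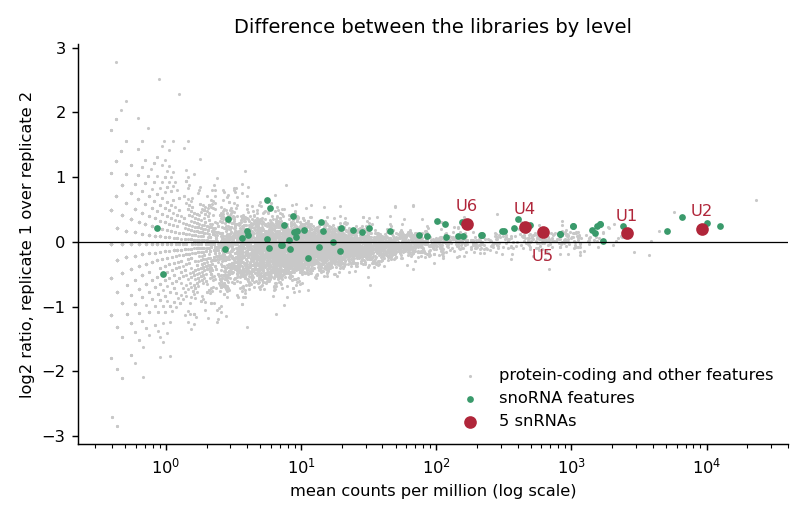
Log2 ratio of CPM, replicate 1 over replicate 2, against mean CPM on a log axis, for features outside rRNA with at least 10 reads in sum. Red points are the 5 snRNAs, green points snoRNA features and grey points all other features. The snRNAs lie between 0.13 and 0.28, above the median of -0.06 over all features tested.

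The snRNA pool as a whole had a log2 ratio of 0.19, or 0.15 without U2. Other non-coding RNAs were set beside it. The pair of U3 snoRNA genes, snu3 and snu32, whose similar reads can be split between them, had 22749 ± 2942 CPM together and a log2 ratio of 0.26, and 57 other snoRNAs had 26968 ± 3064 CPM and 0.23, or 0.18 without snR30. The RNAs of the signal recognition particle (srp7), RNase P (rrk1) and RNase MRP (mrp1) had 33407 ± 8946 CPM together and 0.55, of which srp7 alone had 23268 ± 7284 CPM and 0.65, rrk1 0.46 and mrp1, below the snRNA pool, 0.17. The pool ratio was thus lower by 0.08 than that of U3 and by 0.37 than that of srp7, rrk1 and mrp1 (whose ratio was 0.34 without srp7), with counting SEs of 0.00629 and 0.00594. Against the other snoRNAs no direction held, since it turned when snR30 was left out, an alternative chosen after seeing the data. These differences are between 2 libraries and carry no replicate check.

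Level and length were set side by side, because the members range from 94 to 187 nt. U2 is the longest with the most reads and U6 the shortest with the fewest. The order by length departs from the order by level only for U4 and U5, U5 being shorter with more reads. Across 59 snoRNAs, with 7 that hold over 50% of a shorter snoRNA feature left out, Spearman's rho of length and CPM was 0.592 (a description over genes that share 2 libraries). U1 was above all 7 snoRNAs within 15 nt of its length, whose median was 115 CPM, and U2 above all 3, whose median was 1546 CPM. For U6, 1 of 24 snoRNAs of its length was above it, SPNCRNA.498 at 318 CPM, and their median was 8.97 CPM. U4 and U5 each had 2 of 4 snoRNAs of their length above them, with medians of 714 and 751 CPM. The sets ranged from 0 to 1713 CPM for U4 and from 0.945 to 1713 CPM for U5. Both sets thus include snoRNAs with almost no reads. The part of length in these levels was not tested.

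**Figure D5:**
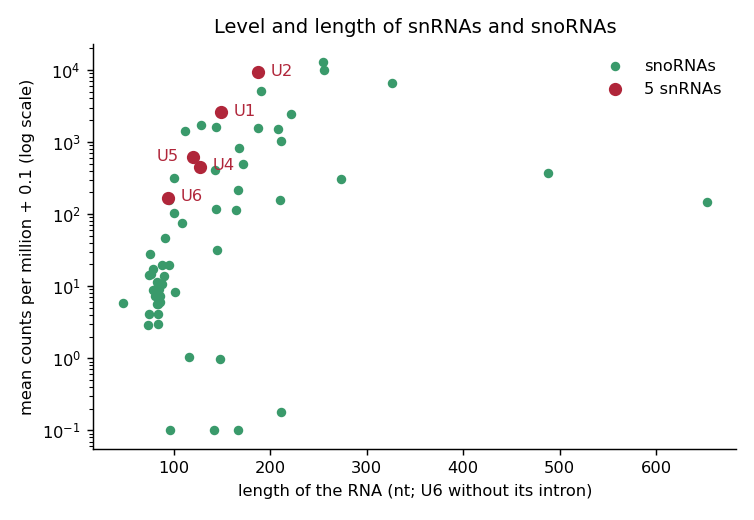
Mean CPM plus 0.1, on a log axis, against the length of the RNA in nt, for the 5 snRNAs (red, U6 without its intron) and 59 snoRNAs (green). U1 and U2 lie above every snoRNA within 15 nt of their length, and U4 and U5 each lie below 2 of 4.

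Every overlapping or flanking gene had fewer reads than the snRNA it lies beside. Antisense lncRNAs cover U1, U4 and U5 over their whole length, and had 2 and 1 reads (SPNCRNA.5934, over U1), 8 and 6 reads (SPNCRNA.4732, over U4) and 8 and 8 reads (SPNCRNA.6024, over U5) in replicates 1 and 2. The counts thus kept the strands apart at these genes. No feature overlaps U2 or U6. The nearest gene is cwf21, which encodes a splicing factor and lies 57 nt from U6 on the same strand, with 52 and 61 reads. Near U4, met17 of sulfur amino acid synthesis, 241 nt away on the opposite strand, had 2395 and 2356 reads. The other flanking genes were gpt2 (165 and 172 reads) and SPNCRNA.1573 (12 and 10) beside U1, sno1 (332 and 318) and SPNCRNA.2423 (5 and 8) beside U2, and SPBC428.12c (171 and 194) beside U4. Those beside U5 (SPNCRNA.6023 and SPNCRNA.6025) and SPNCRNA.3147 beside U6 had at most 1 read in a library.

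In CPM, the 5 snRNAs were above the mRNAs of all listed snRNP proteins, except that snu13 (214 CPM) was above U6 (168 CPM). The snRNAs were captured only through the added tails, whereas mRNAs carry tails by nature, and the effect on this comparison was not tested. Over 61 genes for proteins of the snRNPs and of snRNA assembly, the median was 10.05 CPM, against 10.4 CPM for 4921 protein-coding genes with at least 10 reads in sum. The genes of the Sm ring were the most abundant list with a median of 29.2 CPM, and all 7 were above the median of protein-coding genes. The LSm genes, whose products include the ring of U6, had a median of 21.2 CPM with 6 of 8 above it. The other lists were lower, with 8.81 CPM for the U2 snRNP and branchpoint factors, 8.18 CPM for the U5 snRNP and tri-snRNP, 7.56 CPM for the U1 snRNP and 6.35 CPM for assembly, capping, end processing and modification.

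Within the lists, single genes differed widely. In the Sm ring smb1 had 55.5 ± 3.99 CPM, smg1 33.8 ± 5.49 and smd3 32.2 ± 4.25, and in the LSm list lsm7 had 40.1 ± 3.26, lsm6 35.8 ± 4.08 and lsm3 27.5 ± 2.39. In the tri-snRNP list snu13 reached 214 ± 10.4 CPM, but its protein also binds box C/D snoRNAs. The U5 proteins followed, with spp42 (Prp8, which encloses the catalytic centre) at 30.7 ± 1.67 CPM and brr2 (the helicase that unwinds U4 from U6) at 22.4 ± 1.36 CPM. The U2 list was led by ini1 at 24.5 ± 2.12 CPM, prp12 at 16.2 ± 2.43 and prp10 at 14.1 ± 0.563, all of the SF3b complex that binds the branchpoint region. The U1 list was led by usp108 at 16.8 ± 0.394 CPM, prp39 at 11.3 ± 0.683 and prp40 at 10.8 ± 0.715.

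Among the factors that make snRNAs, skb1, an arginine methyltransferase, had 27.5 ± 2.56 CPM, sla1, the La protein that binds new RNA polymerase III transcripts, 20.6 ± 2.17 and pac1, the RNase III enzyme, 19.1 ± 1.20. The lowest of all listed genes was mpn1, which trims the 3′ end of U6, at 0.941 ± 0.207 CPM (14 and 10 reads). Of the 61 genes, 0 were called as higher in replicate 1, whereas 2 were higher in replicate 2, beside 2.40% of protein-coding genes and 2.01% of all features called in that direction (0 and 9 at an unadjusted p under 0.05, and 0 and 2 called by a chi-square test). These were smg1 with 385 and 474 reads in replicates 1 and 2 (log2 ratio -0.33, exact binomial test, adjusted p = 0.0236) and usp102, for a U1 snRNP protein, with 62 and 101 reads (-0.73, adjusted p = 0.0417). With TMM factors or DESeq2 size factors 0 of the 61 were called (exact binomial test, 5 with an unadjusted p under 0.05), and the adjusted p of smg1 was 0.112 and 0.106 and that of usp102 0.0739 with each.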

How the data were processed

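dRNA-seq was performed on 2 libraries of 1 group. As the study's methods state, the authors called bases with dorado 7.2.13-1 in super accuracy mode and mapped reads with minimap2 in splice mode, a tool also named in the submitters' processing notes. The counting tool, its treatment of multi-mapping reads and the genome build were not given in the sources used here. The deposited values are read counts per annotated feature, not normalized, 1 column per library. They were handled as estimated counts, and rounding changed no deposited value. The header names stand 1 cell to the right of their data, and columns were aligned by content. Reads that overlap several features of a strand can be counted in each, so library totals are sums of assignments.

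CPM was computed over all features. Names, classes, exons and sequences came from RefSeq ASM294v3, where 82 identifiers had no exact match. Library differences were tested by an exact binomial test, two-sided, on the replicate 1 count out of both counts (at least 10 reads together). Benjamini-Hochberg adjustment was at 0.05 (scipy 1.17.1, numpy 2.4.6). The test was first checked on simulated counts with counting error only, so the check does not cover replicate spread. Printed log2 ratios add 0.5 to each count. Pairs of snRNAs were tested by Fisher's exact test, and BCV and TMM factors came from edgeR 4.0.16 and size factors from DESeq2 1.42.0. Intervals are at 95% and cover counting error only.

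Members, gene lists and tests were chosen with earlier results of these data known. Named genes were the 5 snRNAs, the next features above and below each in CPM outside rRNA and the members, U3, srp7, rrk1 and mrp1, features overlapping or flanking a member, and the 3 most abundant genes of each protein list with those called. Other genes were named after their values were seen (SPNCRNA.498, mpn1, lsm2, lsm8). Of the listed protein genes 1 was left out, because its symbol belongs to another gene, and 6 were found under a synonym. Alternatives were other library totals, TMM and DESeq2 scaling, count minimums, a chi-square test, pseudocounts, division by length and leaving out a replicate.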

Additional observations from a re-analysis of the deposited data

How the results depend on the processing

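The levels depend on the library total: the 5 snRNAs together had 33558 CPM with rRNA left out and 49800 CPM over protein-coding genes alone, and the median of the snRNP protein genes was 38.2 CPM over protein-coding genes alone. Dividing reads by gene span, which includes the U6 intron, gave shares of 22.5% (U1), 64.6% (U2), 4.62% (U4), 6.72% (U5) and 1.52% (U6) and 3.05 U4 reads per U6 read. Dividing by spliced length gave 22.3%, 64.1%, 4.58%, 6.67% and 2.30%, and 1.99 U4 per U6. Among calls of at least 1.5-fold there were 0 snRNAs and 0 pairs. The 2 snRNP protein genes called became 0 with TMM and 0 with DESeq2 scaling. All 5 snRNAs were called under each other scaling of the count, minimum and test, with 253 to 311 features called in all, and their log2 ratios moved by 0.06 with TMM or DESeq2 factors. With rRNA left out, U5 was the only snRNA not called (log2 ratio 0.06). Leaving out a replicate returns the value of the other library, so it is no separate check. The total was then 12244 CPM without replicate 1 and 13946 CPM without replicate 2. The U4 to U6 ratio was 2.74 and 2.64 in that order. Chosen after seeing the data, leaving out snR30 turned the difference of the log2 ratios of the snRNA pool and the other snoRNAs (-0.04) to 0.0049, and leaving out srp7 gave -0.15 against rrk1 and mrp1 in place of -0.37. No paired analysis was possible because only 1 group was sequenced. With 2 libraries, no test separates replicate spread from a difference between the cultures.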
